A study of Homo sapiens with 26 samples.

Results

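MV4-11, an established human acute myeloid leukaemia cell line that carries an activating FLT3 mutation, was treated for 48 h with quizartinib and dexamethasone together, and these cells were set against cells given quizartinib alone. Quizartinib inhibits the FLT3 receptor tyrosine kinase, and dexamethasone is a synthetic glucocorticoid. The comparison rests on the 3 RNA-seq libraries labelled as the combination and the 3 labelled as quizartinib at 48 h, 6 of the 26 libraries of the series. All 16430 gene entries of the count tables were tested. Per the labels, the combination cells received 10 nM quizartinib and 100 nM dexamethasone, and the quizartinib cells received 10 nM quizartinib. The same experiment held 3 libraries each of 48 h in 100 nM dexamethasone and of 48 h in DMSO, and 3 each of the combination and of quizartinib at 5 days, where dexamethasone was added on day 3. The labels describe the sequenced cells as those that survived the treatment, all from 1 line grown in medium with serum, and give no culture of origin for the replicates. The p-values therefore measure the spread between these libraries, which may be technical. The question this comparison addresses is what the glucocorticoid adds to cells in which FLT3 is already inhibited.

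Library totals ran from 21577884 to 24990476 counts with the combination and from 18437559 to 23243740 counts with quizartinib. Of 14 genes that identify the line, 14 were measured, among them FLT3 at 715, 687 and 581 CPM with the combination and 449.8, 450.5 and 450.5 CPM with quizartinib (CPM, counts scaled for library size). In the test below FLT3 was higher and LYZ, CD4 and SPI1 were lower, beside 5.62% and 4.63% of all entries. Mean levels of the 14 over the 6 libraries went down to 2.38 CPM for MPO. Of 7 B cell markers 5 were among the entries, with summed levels of 3.09 to 4.25 CPM with the combination and 2.61 to 3.46 CPM with quizartinib. Of 8 T and NK cell markers the entries held NKG7 alone, and of 9 erythroid and megakaryocyte markers ITGA2B alone. The libraries numbered 3 of both groups stood apart from numbers 1 and 2 on the second principal component of the 6 libraries, which held 21.3% of their variance. FOS, an immediate early gene, was at 74.8, 82.3 and 339 CPM with the combination and 78.0, 79.5 and 1139 CPM with quizartinib, so that the third library of each group was the high one. Reads of 7SK and 7SL, abundant small noncoding RNAs, made up 22.1%, 21.5% and 31.6% of the counts with the combination, against 17.1%, 16.0% and 18.8% with quizartinib. These groups did not overlap, and an exact two-sided permutation test gave p = 0.1, the smallest that 3 against 3 libraries allow. The part of these library differences in the results below was not tested beyond the values given with and without the libraries concerned.

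Glucocorticoids act through the glucocorticoid receptor, encoded by NR3C1, which is held by heat shock protein chaperones until the hormone binds and then moves to the nucleus to raise or lower the transcription of its target genes. In monocytic cells the receptor is known for restraining inflammatory and antigen presentation genes and for raising scavenger receptors, and in lymphoid cells for raising the pro-apoptotic BIM protein. FLT3 signals through STAT5, RAS and PI3K, and its inhibition in FLT3-mutant leukaemia is known to slow the cell cycle.

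Dexamethasone added to quizartinib raised 924 entries and lowered 761 at an adjusted p under 0.05, which is 5.62% and 4.63% of the 16430 tested. Both directions together made up 1685 entries, 10.3% of those tested. Of these, 408 were at least 2-fold higher and 201 at least 2-fold lower (2.48% and 1.22% of those tested). The median log2 fold change over all entries was 0.005. When the 4 libraries numbered 3 at 48 h were left out, 1002 entries were higher and 834 lower. Of the called genes and list members described below, ACTB, B2M, CDKN1C, CTSS, ERAP1, FOXO1, IFNAR2, LAMP2, MYD88, NCOA2, NFYA, NOP16, PDIA3, PFKM, PSMB8, PSMB9, PSMB10, RFC4, RN7SL1, RN7SL2, S1PR3 and SPI1 were not called without those libraries. The libraries of both groups did not overlap at 2518 entries on the higher side and 2518 on the lower side, 15.3% each. Long intergenic noncoding RNAs went mostly one way, with 37 higher and 5 lower of 803 (4.61% and 0.623%), beside 813 higher and 715 lower of 12584 protein-coding genes (6.46% and 5.68%).

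**Figure D1:**
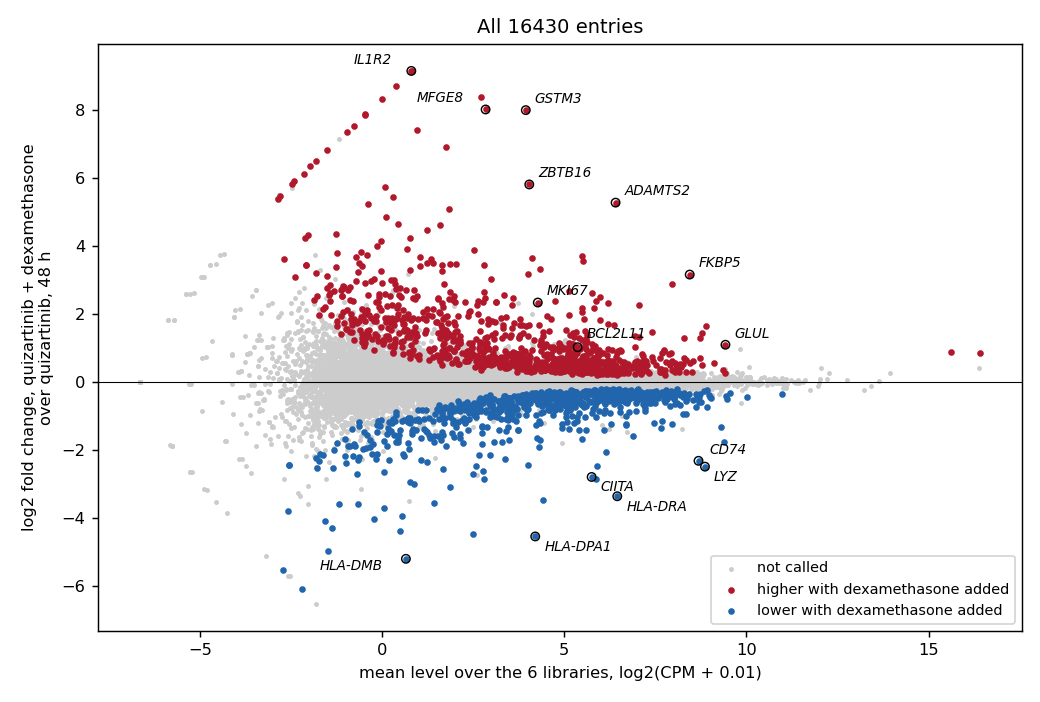
The log2 fold change of quizartinib plus dexamethasone over quizartinib at 48 h (y axis) is plotted against the mean level over the 6 libraries (x axis, log2 CPM with 0.01 added), 1 point per entry, with called entries in red (924 higher) and blue (761 lower). MHC class II genes such as HLA-DRA and HLA-DPA1 lie low at moderate levels, and FKBP5 and ADAMTS2 stand high.

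Part of these responses was shared with dexamethasone given without quizartinib, in libraries that the present comparison does not use. Of the 924 higher entries, 353 were also higher with dexamethasone against DMSO, which is 38.2% of the 924 and 39.0% of the 904 higher there (5.5% of those tested). Among the 761 lower entries 382 were also lower there, 50.2% of the 761 and 35.1% of the 1089 (6.63% of those tested). The sign was the same for 811 of the 924 (87.8%) and for 680 of the 761 (89.4%), and the log2 fold changes had a Pearson correlation of 0.798 over the 1685 called entries and of 0.499 over all 16430. At 5 days, again in separate libraries, 504 of the 924 were higher with the combination than with quizartinib and 462 of the 761 lower. That is 54.5% and 60.7% of the entries called at 48 h, and 66.8% and 69.6% of the 755 and 664 called at 5 days (4.6% and 4.04% of those tested).

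Known target genes of the glucocorticoid receptor were higher more often than lower. Of 24 measured, 13 were higher, 1 was lower and 10 were not called, with a median log2 fold change of 1.146, against 5.62% higher and a median of 0.005 over all entries. The summed level of the 24 was 3565, 3553 and 4155 CPM with the combination, against 1542, 1553 and 2381 CPM with quizartinib, so that every combination library was above every quizartinib library. FKBP5 (chromosome 6, 35573585 to 35728583 on GRCh38, as are the positions of genes below), an immunophilin that lowers the receptor's affinity for its hormone and one of its classical targets, had 624, 612 and 645 CPM with the combination, against 71.2, 71.8 and 68.3 CPM with quizartinib. The 3 libraries of each group were close together, and the log2 fold change was 3.15 ± 0.08 (SE, edgeR adjusted p = 1.3e-13). Without quizartinib FKBP5 reached 1439, 1420 and 1524 CPM with dexamethasone, against 102, 112 and 97.7 CPM with DMSO, and its log2 effect was 0.66 smaller with quizartinib than without (edgeR adjusted p = 0.0033).

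ZBTB16, a zinc finger transcription factor of early blood cells, had 19.8, 23.9 and 53.5 CPM with the combination and 0.359, 0.461 and 0.864 CPM with quizartinib (5.80 ± 0.49, edgeR adjusted p = 4.4e-07). TSC22D3, which encodes the leucine zipper protein GILZ that mediates part of the anti-inflammatory action of glucocorticoids, averaged 435 ± 25.1 CPM with the combination and 58.7 ± 24.5 CPM with quizartinib (SD, n = 3 each; 2.89 ± 0.54). The transcription factor KLF9 (2.16 ± 0.18) and the clock gene PER1 (2.39 ± 0.22) rose, as did NFKBIA, the inhibitor of NF-kB (0.90 ± 0.20), and the stress gene DDIT4 (2.61 ± 0.59). GLUL, glutamine synthetase, was among the entries with the largest gain in level, at 923, 936 and 951 CPM with the combination and 419, 417 and 483 CPM with quizartinib (1.09 ± 0.16, edgeR adjusted p = 0.00013). PDK4, which restrains the entry of pyruvate into mitochondria, rose by 2.21 ± 0.33, and the secreted protein CRISPLD2 was the member that fell (-1.40 ± 0.34). Not called were DUSP1 (-0.09 ± 1.35), SGK1 (1.99 ± 0.79), PER2 (-0.02 ± 0.10) and TNFAIP3 (1.12 ± 0.35) among others. With the number 3 libraries of 48 h left out, 17 members were higher and 1 lower.

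The receptor itself did not pass the test. NR3C1 had 122, 126 and 134 CPM with the combination and 118, 117 and 141 CPM with quizartinib, overlapping groups (0.02 ± 0.09, edgeR adjusted p = 0.94). Of 20 chaperones, cofactors and receptors in its list, NCOA2, a coactivator, was called higher (0.27 ± 0.08) and none lower, with a median of -0.085, and the call was lost in 9 of 15 alternative settings. The shares over all entries were 5.62% higher and 4.63% lower. The chaperones HSP90AA1 (-0.25 ± 0.10) and HSP90AB1 (-0.30 ± 0.10) were not called.

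Several of the steepest rises began from next to nothing. Genes were named for their fold change at a mean of at least 1 CPM over the 6 libraries. Those given here reached that mean through the combination libraries, so their low start follows in part from the choice. IL1R2, the decoy receptor that binds interleukin 1 without signalling, had 3.40, 3.83 and 3.20 CPM with the combination and no counts in any quizartinib library, which, with 3 counts taken as the group's upper limit, makes it at least 71.1-fold higher. The matrix protease MMP7 was at 2.08, 3.21 and 5.26 CPM and DAAM2, a formin that regulates actin and Wnt signalling, at 1.32, 1.19 and 5.32 CPM with the combination. Both had no counts with quizartinib, which puts them at least 68.9-fold and 49.1-fold higher. For genes with 1 to 3 counts over the 3 quizartinib libraries, the ratio is given with its exact 95% counting interval, which covers counting error only. CACNA1I, a subunit of a voltage-gated calcium channel, was 393-fold higher (108 to 3250), with 12.0, 11.8 and 15.3 CPM in the combination libraries. MFGE8, a secreted bridge between dying cells and phagocytes, was 282-fold higher (96.1 to 1370), with 10.7, 12.0 and 20.2 CPM. CYP19A1, the aromatase that forms oestrogens, was 231-fold higher (41.1 to 9170) at 3.27, 3.79 and 4.45 CPM. With dexamethasone alone, CYP19A1 averaged 36.6 ± 27.9 CPM (SD, n = 3), above the 3.84 ± 0.592 CPM with the combination, and the difference of the effects was not called (edgeR adjusted p = 0.63). FSIP2, known from the sperm flagellum, was 137-fold higher (46.7 to 669), PDE8B, a cyclic AMP phosphodiesterase, 62.3-fold (16.9 to 520.0) and PROX1, a homeobox transcription factor, 48.4-fold (16.3 to 237).

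The calls with the smallest p-values among the higher entries were FKBP5, ADAMTS2, SMAP2, GRB10, GSTM3 and IL27RA. ADAMTS2, a protease that trims procollagen, had 149, 159.6 and 189 CPM with the combination, against 3.85, 4.04 and 4.96 CPM with quizartinib (5.27 ± 0.16, edgeR adjusted p = 4.1e-13). GRB10, an adaptor that restrains insulin and growth factor receptors, had 73.8, 75.3 and 99.6 CPM with the combination, against 5.54, 5.48 and 8.09 CPM with quizartinib (3.69 ± 0.17, edgeR adjusted p = 4.2e-10). In both genes every combination library lay far above every quizartinib library. The effect on GRB10 was larger with quizartinib than without, by 1.33 ± 0.22 on the log2 scale (edgeR adjusted p = 0.0035). SMAP2, a GTPase-activating protein of the endosomal ARF1 pathway, stood at 739, 702 and 724 CPM with the combination and 235, 228 and 229 CPM with quizartinib (1.64 ± 0.08). IL27RA, a receptor chain for interleukin 27, rose by 2.37 ± 0.12 and the glutathione transferase GSTM3 by 7.99 ± 0.39. GSTM3 belongs to a family of close paralogs, so reads could have been split between them.

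MHC class II genes encode the surface molecules that present peptides to CD4 T cells. Their transcription depends on CIITA, a transactivator that does not bind DNA itself but is recruited by a complex of RFX, CREB and NF-Y on the X and Y boxes of each promoter. CIITA (chromosome 16, 10866222 to 10943021) had 12.5, 15.8 and 12.4 CPM with the combination, against 105, 105 and 73.2 CPM with quizartinib. Every combination library lay far below every quizartinib library, and the log2 fold change was -2.80 ± 0.22 (edgeR adjusted p = 1.6e-07). Of 12 MHC class II genes measured, 11 fell and none rose, against 4.63% lower over all entries, with a median log2 fold change of -3.411. HLA-DOB was not called (-0.93 ± 0.35), although its groups did not overlap. Summed over the 12, the level was 214, 201.5 and 157 CPM with the combination, against 1175, 1126 and 997.5 CPM with quizartinib, and it was 255, 213 and 276 CPM with DMSO.

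The promoters below, from RefSeq on GRCh38.p14, are shown because they carry the letters of the boxes through which CIITA is recruited. Each runs 5′ to 3′ from 250 bases before the gene's start to 50 bases after it, and the capitals mark matches on either strand to the X box and to CCAAT, the core of the Y box.
HLA-DMB: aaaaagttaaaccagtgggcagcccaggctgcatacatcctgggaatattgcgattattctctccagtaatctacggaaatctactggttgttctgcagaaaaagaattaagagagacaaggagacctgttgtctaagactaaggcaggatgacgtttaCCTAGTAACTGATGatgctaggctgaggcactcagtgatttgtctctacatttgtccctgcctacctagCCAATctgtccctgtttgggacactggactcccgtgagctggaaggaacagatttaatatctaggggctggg
HLA-DQB1: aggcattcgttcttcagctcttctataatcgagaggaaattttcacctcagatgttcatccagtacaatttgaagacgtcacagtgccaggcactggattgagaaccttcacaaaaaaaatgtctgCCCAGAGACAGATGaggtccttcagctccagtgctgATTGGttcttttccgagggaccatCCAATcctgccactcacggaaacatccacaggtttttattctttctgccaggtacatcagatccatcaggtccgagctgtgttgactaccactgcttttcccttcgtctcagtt
CD74: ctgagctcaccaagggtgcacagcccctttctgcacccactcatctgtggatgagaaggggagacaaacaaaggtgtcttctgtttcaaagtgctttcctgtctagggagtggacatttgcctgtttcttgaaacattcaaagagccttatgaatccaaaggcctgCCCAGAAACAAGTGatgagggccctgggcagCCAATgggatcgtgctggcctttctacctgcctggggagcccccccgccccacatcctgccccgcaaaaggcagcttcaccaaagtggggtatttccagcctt
They lie at chr6:32940979-32941278, chr6:32666608-32666907 and chr5:150412861-150413160, each on the minus strand, and in none do the 2 kinds of match overlap. Of 11 promoters listed for 10 of the 12 genes, 4 held the X box letters (36.4%) and 9 held CCAAT (81.8%), against 3.9% and 34.6% of all 35116 promoters of the table. HLA-DMA was the fourth with the X box letters. The palindromic glucocorticoid response element was found in 1 of the 11, a promoter of HLA-DPA1, and in 0.39% of all promoters. It was also in 1 of 31 promoters of the known receptor targets (3.23%). Among promoters of the called genes it was in 0.101% for higher and 0.113% for lower genes, below the share of all promoters. A match describes letters in the window, not a bound site.

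HLA-DRA (chromosome 6, 32439842 to 32445046), the alpha chain that pairs with every HLA-DR beta chain, had 19.7, 17.4 and 9.34 CPM with the combination, against 172, 164 and 146 CPM with quizartinib (-3.36 ± 0.24, edgeR adjusted p = 5.6e-08). CD74, the invariant chain that guards the peptide groove until it is loaded, had 155, 141 and 117 CPM with the combination and 725, 697 and 639.7 CPM with quizartinib (-2.32 ± 0.16, edgeR adjusted p = 4.6e-08). HLA-DPA1 went to 2.00, 1.54 and 0.923 CPM with the combination, against 41.1, 37.0 and 28.2 CPM with quizartinib (-4.54 ± 0.33). In these genes the third library was the lowest of each group. HLA-DPB1 fell by 4.49 ± 0.37, HLA-DRB1 by 3.46 ± 0.28 and HLA-DRB5 by 3.55 ± 0.34 on the log2 scale. HLA genes are highly alike and vary between people, so the split of reads among them is uncertain. HLA-DQA1 had 1 count over the combination libraries and 41 over the quizartinib libraries, 43.5-fold lower (7.38 to 1760, 95% counting interval). HLA-DQB1, whose promoter is shown above, fell by 1.72 ± 0.14 and HLA-DMA, a chain of the exchange factor that loads peptide, by 1.91 ± 0.17. Its partner HLA-DMB had 0.127, 0.0440 and 0.0543 CPM with the combination, against 3.44, 2.92 and 2.82 CPM with quizartinib (-5.20 ± 0.47, edgeR adjusted p = 8.4e-07). With dexamethasone alone HLA-DMB was at 0.0437, 0.330 and 0.271 CPM, against 0.228, 0.182 and 0.262 CPM with DMSO.

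**Figure D2:**
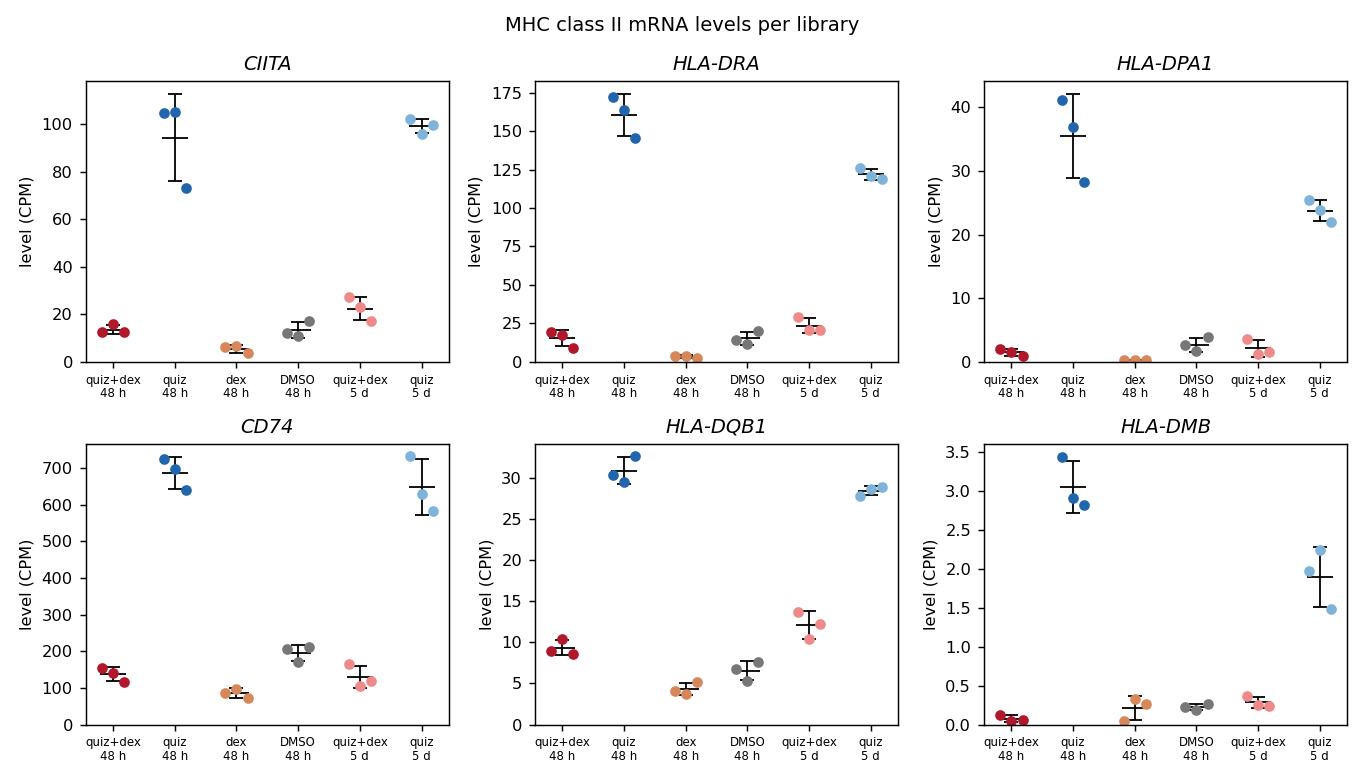
Levels in CPM (y axis) of 6 MHC class II genes in the 6 groups of the experiment (x axis, quiz for quizartinib, dex for dexamethasone), with 1 point per library and bars for the mean and SD of 3. In each panel the 3 points of the combination at 48 h lie far below the 3 of quizartinib, and at 5 days the order is the same.

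The effect of dexamethasone on MHC class II was larger in the presence of quizartinib for 6 of the 12 genes by the test of the difference itself (the background is 0.749% of all entries more negative). These were HLA-DMB (-5.10 ± 0.74), HLA-DRB1 (-1.87 ± 0.41), CIITA (-1.5 ± 0.31), CD74 (-1.14 ± 0.22), HLA-DQB1 and HLA-DMA. In absolute level, CIITA went to 13.6 ± 1.90 CPM with the combination, 94.4 ± 18.3 CPM with quizartinib, 5.47 ± 1.62 CPM with dexamethasone and 13.4 ± 3.41 CPM with DMSO (SD, n = 3 each). Dexamethasone alone lowered the list too. Against DMSO, 9 of the 12 were lower, 0 higher and 3 not called, with a median of -1.238 (6.63% of all entries were lower). Their summed level was 108, 119 and 90.7 CPM with dexamethasone, against 255, 213 and 276 CPM with DMSO. HLA-DMB was near the floor with DMSO, as given above. The same 12 genes had 11 lower at 5 days with a median of -2.541, and no member was called in the difference between 5 days and 48 h.

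Of the 7 factors that bind the X and Y boxes, NFYA was called lower (-0.29 ± 0.08, edgeR adjusted p = 0.034), and RFX5 (-0.28 ± 0.18), RFXAP (-0.18 ± 0.21), RFXANK (-0.13 ± 0.09), NFYB, NFYC and CREB1 were not. The call of NFYA was lost in 7 of 15 settings. MHC class I genes, which present peptides to CD8 T cells, had a smaller median change. Of 17 measured, 9 fell and none rose, against 4.63% lower over all entries, with a median of -0.385. TAPBP, which holds class I molecules at the peptide transporter, fell by 0.49 ± 0.08, the immunoproteasome subunit PSMB9 by 0.67 ± 0.15 and B2M, the shared light chain, by 0.39 ± 0.11. With the 4 number 3 libraries of 48 h left out, 4 of the 17 were lower, and without the third library of either group 2. The call of B2M was lost in 6 of 15 settings. The transporters TAP1 (0.08 ± 0.11) and TAP2 (-0.41 ± 0.14) were not called.

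Genes of monocytes and macrophages fell more often than they rose. Of 21 surface and secreted markers measured, 8 fell and 1 rose, against 4.63% lower and 5.62% higher over all entries, with a median of -0.466. LYZ, the bacteria-degrading enzyme lysozyme, was among the 5 largest losses in level, at 138, 135 and 149.5 CPM with the combination, against 675, 621 and 1079 CPM with quizartinib (-2.49 ± 0.19, edgeR adjusted p = 1.2e-07). The perforin-like macrophage gene MPEG1 was at 16.1, 14.0 and 12.8 CPM with the combination and 102, 108 and 97.2 CPM with quizartinib (-2.84 ± 0.25). CSF1R, the receptor for macrophage colony-stimulating factor, fell by 0.86 ± 0.19, the adhesion receptor CD84 by 0.90 ± 0.15 and CD4 by 0.66 ± 0.08. The Fc receptor FCGR2B fell by 2.99 ± 0.41 and its near-copy FCGR2C by 3.10 ± 0.34, values that the shared sequence makes uncertain. FCGR2A was the member that rose (0.31 ± 0.09, edgeR adjusted p = 0.043), and it was not called in 7 of 15 alternative settings. CD33 (-0.07 ± 0.07), CD68 (-0.32 ± 0.29) and CD86 (-1.02 ± 0.33) were not called.

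Other steep falls were LGALS2, a galectin (-4.37 ± 0.44), and GPC3, a cell surface proteoglycan (-3.71 ± 0.40). LGALS2 had 0.127, 0.0881 and 0.163 CPM with the combination, against 2.93, 2.46 and 2.68 CPM with quizartinib. RET, a receptor tyrosine kinase, fell by 2.93 ± 0.36. HSPA7, annotated as a pseudogene of the heat shock protein family, fell by 3.96 ± 0.69, with reads that could belong to its relatives. CES1, a carboxylesterase of monocytes and liver, had 26, 25.9 and 30.1 CPM with the combination, against 105, 96.3 and 142 CPM with quizartinib (-2.07 ± 0.15, edgeR adjusted p = 1.1e-07). CST3, the protease inhibitor cystatin C, averaged 304 ± 33.8 CPM with the combination and 1032 ± 10.1 CPM with quizartinib (SD, n = 3 each). AC139495.3, annotated as an unprocessed pseudogene, fell by 1.24 ± 0.10. ACTB, cytoplasmic actin, was another of those 5 losses, at 1799, 1693 and 1790 CPM with the combination and 2007, 2057 and 2661 CPM with quizartinib (-0.35 ± 0.11). Its adjusted p was 0.046, and it was not called in 7 of the alternative settings.

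Among 17 adhesion molecules 6 fell, none rose and 11 were not called, against 4.63% lower over all entries (median -0.562). ITGAL, the alpha chain of the integrin LFA-1, had 383, 379 and 325 CPM with the combination, against 905, 903 and 906 CPM with quizartinib (-1.32 ± 0.12, edgeR adjusted p = 6e-07). ITGB7 fell by 1.24 ± 0.14, ICAM3 by 0.99 ± 0.23, CD44 by 0.41 ± 0.10 and CD47, the signal that restrains phagocytes, by 0.40 ± 0.08. With the same 4 libraries left out, 10 members were lower and 1 higher. Of 15 chemotactic receptors 6 fell, 1 rose and 8 were not called (median -0.599). CX3CR1, the fractalkine receptor of patrolling monocytes, had 6.24, 4.49 and 4.18 CPM with the combination, against 24.4, 24.4 and 33.1 CPM with quizartinib (-2.45 ± 0.26, edgeR adjusted p = 6.8e-06). The chemokine receptors CCR2 (-0.99 ± 0.13), CXCR2 (-0.74 ± 0.10) and CXCR3 (-1.89 ± 0.38) fell too. CXCR4, which holds leukaemia cells in the marrow, rose, with 336, 322 and 276 CPM with the combination and 198, 201 and 237 CPM with quizartinib (0.55 ± 0.11, edgeR adjusted p = 0.002).

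In the list of Toll-like receptors and the phagocyte oxidase, 6 of 18 fell and 1 rose, beside 4.63% and 5.62% of all entries. TLR1 (-0.96 ± 0.18), TLR6 (-0.74 ± 0.20), the peptidoglycan sensor NOD2 (-0.93 ± 0.13), the inflammasome sensor NLRP3 (-0.40 ± 0.08), the adaptor MYD88 (-0.30 ± 0.09) and the oxidase subunit CYBA (-0.48 ± 0.10) were lower. The calls of MYD88 and TLR6 were lost in 8 and 6 of 15 alternative settings. Leaving out the 4 number 3 libraries of 48 h gave 3 higher members. IRAK3, a brake on Toll-like receptor signalling, was higher (0.29 ± 0.08, edgeR adjusted p = 0.038), a call also lost in 7 of 15 settings. Of 17 NF-kB and inflammatory genes, NFKBIA and IL18 rose and RELB, an NF-kB subunit, fell (-0.64 ± 0.16). IL18, an inflammatory cytokine of the interleukin 1 family, had 43.1, 40.8 and 37.1 CPM with the combination, against 19.8, 18.2 and 16.6 CPM with quizartinib (1.15 ± 0.13, edgeR adjusted p = 1.1e-05). TNF (0.11 ± 0.58) and IL1B (0.67 ± 0.54) were not called. Of 24 interferon-stimulated genes, ISG20, an RNA exonuclease, rose (1.77 ± 0.28) and none fell (median -0.048). Of 10 immediate early genes none was called, in groups where the third libraries were high.

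Receptors for cytokines went both ways, with 6 of 26 higher and 5 lower, beside 5.62% and 4.63% of all entries, or 8 lower with a block for the replicate number. Besides IL1R2, the accessory chain of the interleukin 1 receptor, IL1RAP (0.97 ± 0.14), the interleukin 13 receptor chain IL13RA1 (0.78 ± 0.09), the interferon gamma receptor chain IFNGR1 (0.60 ± 0.09) and the shared signalling chain IL6ST (0.47 ± 0.14) rose. CSF1R, CSF2RB (-0.52 ± 0.15), the interleukin 10 receptor chain IL10RA (-0.66 ± 0.15), IL21R (-1.47 ± 0.28) and IFNAR2 (-0.30 ± 0.08) fell. The calls of CSF2RB and IL6ST were lost in 7 and 6 of 15 settings. The sixth that rose was FLT3, the target of quizartinib, with 715, 687 and 581 CPM with the combination, against 449.8, 450.5 and 450.5 CPM with quizartinib (0.55 ± 0.08, edgeR adjusted p = 0.00025).

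Among 24 myeloid transcription factors, 2 rose and 6 fell, beside 5.62% and 4.63% of all entries. TCF4, the factor that specifies plasmacytoid dendritic cells, had 24.2, 21.5 and 18.4 CPM with the combination, against 80.2, 77.5 and 47.0 CPM with quizartinib (-1.67 ± 0.26). IRF8 (-0.49 ± 0.09), SPI1, which encodes the monocyte and granulocyte factor PU.1 (-0.36 ± 0.09), IKZF1 (-0.31 ± 0.07), ETV6 (-0.35 ± 0.08) and IRF4 (-0.74 ± 0.21) fell by less, and the calls of SPI1 and IRF4 were lost in 5 of 15 settings each. GFI1, a repressor that favours granulocytes, rose by 0.43 ± 0.06. Leaving out the 4 number 3 libraries of 48 h gave 5 higher factors. Of 9 granule proteins, ELANE, neutrophil elastase, and AZU1, azurocidin, rose (0.73 ± 0.13 and 0.34 ± 0.07), and CTSG, cathepsin G, fell (-1.41 ± 0.17). MPO, myeloperoxidase, was not called (-0.09 ± 0.32).

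Genes for the uptake of dying cells and for scavenging rose more often than they fell, with 7 of 20 higher and 2 lower, beside 5.62% and 4.63% of all entries. Besides MFGE8, the receptor kinase MERTK (1.70 ± 0.31), which recognises dying cells through bridging proteins, the integrin chain ITGAV (0.83 ± 0.15), the scavenger receptor STAB1 (1.37 ± 0.29) and the complement component C1QA rose. CD163, the scavenger receptor for haemoglobin, had 0.764, 1.15 and 2.39 CPM with the combination and no counts with quizartinib, at least 27.7-fold higher. THBS1, thrombospondin, averaged 6.90 ± 3.49 CPM with the combination and 0.191 ± 0.134 CPM with quizartinib (5.07 ± 0.91), and 282 ± 257 CPM with dexamethasone alone (SD, n = 3 each). C1QA had 2.29, 1.76 and 1.19 CPM with the combination, against 0.257, 0 and 0.273 CPM with quizartinib (3.25 ± 0.50). CD36 (-1.41 ± 0.39) and LRP1 (-1.78 ± 0.48) fell.

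**Figure D3:**
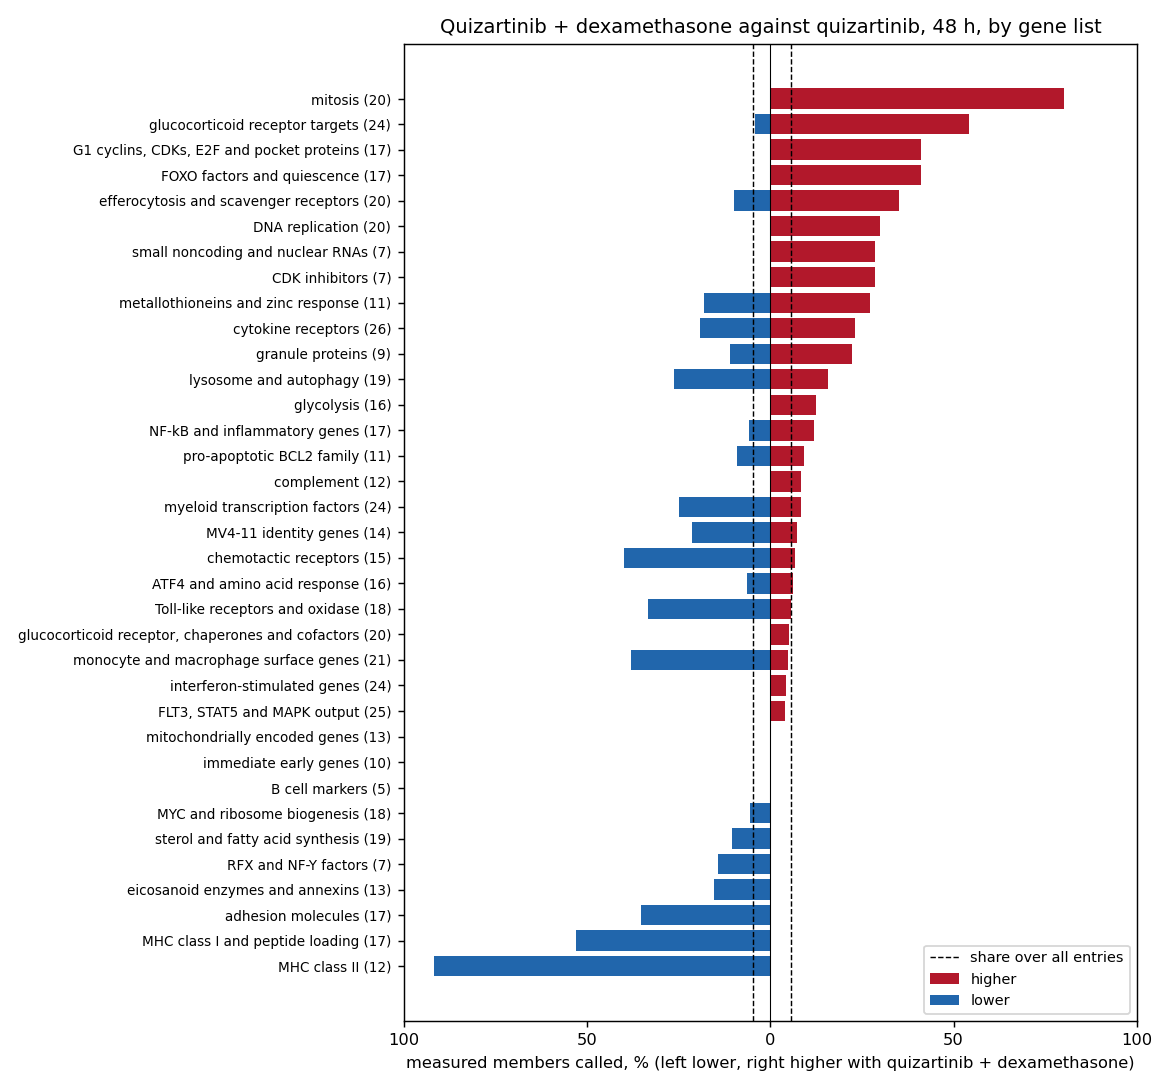
Share of the measured members of each gene list (rows, number measured in brackets; the lists of 5 or more described here) called lower (blue, to the left) or higher (red, to the right) with quizartinib plus dexamethasone than with quizartinib at 48 h (x axis, %). Dashed lines mark 4.63% lower and 5.62% higher over all entries, and mitosis (16 of 20 higher) and MHC class II (11 of 12 lower) reach farthest on each side.

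The BCL2 family decides whether mitochondria are opened for apoptosis. BCL2L11 (chromosome 2, 111119378 to 111168447), which encodes BIM, a BH3-only protein that neutralises the survival members, had 50.9, 49.8 and 65.6 CPM with the combination, against 27.4, 24.1 and 30.4 CPM with quizartinib. The lowest combination library was above the highest quizartinib library (1.02 ± 0.14, edgeR adjusted p = 6.6e-05). Of 11 pro-apoptotic members it was the 1 that rose, and BIK, another BH3-only protein, fell (-0.73 ± 0.17). Over all entries 5.62% were higher and 4.63% lower. Not called were BMF (0.08 ± 0.07), PMAIP1 (0.36 ± 0.55), BBC3 (0.29 ± 0.20), BAX (-0.11 ± 0.09) and BAK1 (-0.02 ± 0.10). Of 4 survival members, BCL2 fell, with 115, 124 and 98.9 CPM with the combination and 187, 191 and 163 CPM with quizartinib (-0.68 ± 0.15). The call of BCL2 was lost when the third combination library was left out (-0.59). MCL1 had 208, 214 and 378 CPM with the combination and 178, 183 and 750.3 CPM with quizartinib, and its value (-0.48 ± 0.54, not called) was 0.23 without the 4 number 3 libraries and 0.56 without the third quizartinib library. BCL2L1 was not called (-0.04 ± 0.08).

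Of 25 genes downstream of FLT3 through STAT5 and MAPK, SOCS1, a feedback inhibitor of cytokine receptors, was called higher (2.56 ± 0.36) and none lower. The members' values went both ways around a median of 0.0. Their summed level was 258, 283 and 735 CPM with the combination and 232, 227 and 1719 CPM with quizartinib. The third library was far above the other two in each group, which leaves the size of a difference in such genes undetermined. The immediate early genes FOS (-1.39 ± 1.30) and EGR1 (-1.38 ± 1.32) and the regulator ID1 (1.77 ± 0.92) had wide errors and were not called. SOCS1 had 11.1, 13.0 and 28.4 CPM with the combination, against 2.52, 2.00 and 4.27 CPM with quizartinib. The MAPK phosphatase DUSP6 (-0.05 ± 0.67), the kinase PIM1 (0.79 ± 0.26) and MYC (-0.38 ± 0.15) were not called either, although the groups of PIM1 did not overlap. When the replicate number entered the fit as a block, MYC was lower (-0.37, edgeR adjusted p = 0.021), and NCOA2, CTSD, E2F7 and FCGR2A were no longer called. Genes of FOXO factors and quiescence were higher in 7 of 17, against 5.62% of all entries, and lower in none (median 0.404). INSR, the insulin receptor, had 622, 619.8 and 679 CPM with the combination, against 234, 232 and 241 CPM with quizartinib (1.44 ± 0.10, edgeR adjusted p = 4.7e-08). PIK3IP1, an inhibitor of PI3 kinase, rose by 2.68 ± 0.15, IRS2, an adaptor of the insulin receptor, by 2.06 ± 0.35, FOXO3 by 0.60 ± 0.11 and the stress sensors SESN1 and SESN3 by 0.59 ± 0.12 and 0.62 ± 0.12.

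Cell cycle genes were low in both groups beside DMSO. MKI67 (chromosome 10, 128096659 to 128126385), which encodes the proliferation antigen Ki-67, had 31.8, 31.8 and 33.5 CPM with the combination, against 5.29, 5.53 and 8.37 CPM with quizartinib, and 1108, 1087 and 921 CPM with dexamethasone, against 1023, 928 and 820.5 CPM with DMSO. The combination libraries were thus above the quizartinib libraries (2.33 ± 0.17, edgeR adjusted p = 5.6e-08) and far below both groups without quizartinib. Of 20 mitosis genes 16 rose and none fell, against 5.62% higher over all entries, with a median of 1.16. Their summed level was 188, 181 and 158 CPM with the combination, against 79.4, 76.6 and 85.7 CPM with quizartinib, which is 4.98% and 2.28% of the DMSO mean of 3533 CPM. In bulk RNA, more cells in division and more of this RNA per cell cannot be told apart. Leaving out the number 3 libraries of 48 h, 17 of the 20 were higher.

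Members of the list differed in size of effect. FOXM1, the transcription factor that drives genes of mitosis, had 2.72, 3.88 and 3.37 CPM with the combination, against 0.565, 0.563 and 0.591 CPM with quizartinib (2.52 ± 0.24, edgeR adjusted p = 1.8e-06). UBE2C (2.99 ± 0.42) and CDC20 (1.84 ± 0.31), which drive exit from mitosis through the anaphase-promoting complex, and BIRC5 (2.00 ± 0.37), a subunit of the chromosomal passenger complex, rose too. CENPF, a kinetochore protein, had 31.8, 30.4 and 33.2 CPM with the combination, against 10.8, 9.11 and 14.3 CPM with quizartinib (1.47 ± 0.14). TOP2A, the topoisomerase that untangles chromosomes, rose by 1.44 ± 0.17. The smallest rises were KIF11 (0.50 ± 0.12) and PTTG1 (0.52 ± 0.14), whose calls were lost in 5 and 6 of 15 settings. CCNB1 (0.17 ± 0.14), AURKA (-0.14 ± 0.16), BUB1 (0.38 ± 0.13) and BUB1B (0.35 ± 0.14) were not called.

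Promoters of mitosis genes are shown because many promoters of the list hold the CCAAT box and the CHR element (TTTGAA), through which the MuvB complex restricts such genes in resting cells. The capitals mark TTTGAA and CCAAT on either strand in the 300 bases around the start, written 5′ to 3′.
MKI67: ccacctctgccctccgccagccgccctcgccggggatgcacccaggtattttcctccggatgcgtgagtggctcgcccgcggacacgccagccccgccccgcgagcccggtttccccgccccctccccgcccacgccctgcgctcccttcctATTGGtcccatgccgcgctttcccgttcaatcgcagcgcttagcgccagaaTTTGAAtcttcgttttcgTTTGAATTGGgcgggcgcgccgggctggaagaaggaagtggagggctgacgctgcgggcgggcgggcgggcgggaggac
CCNB2: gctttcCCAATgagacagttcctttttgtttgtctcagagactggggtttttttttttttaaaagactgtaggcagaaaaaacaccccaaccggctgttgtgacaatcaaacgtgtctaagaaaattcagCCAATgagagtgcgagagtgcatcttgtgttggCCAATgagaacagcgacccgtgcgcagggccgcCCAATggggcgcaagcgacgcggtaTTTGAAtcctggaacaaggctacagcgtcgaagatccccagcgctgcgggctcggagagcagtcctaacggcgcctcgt
The first lies at chr10:128126374-128126673 on the minus strand, with 2 matches to each element, of which 1 pair overlaps by shared letters. The second lies at chr15:59104896-59105195 on the plus strand, with 1 match to TTTGAA and 4 to CCAAT, none overlapping. Of 18 promoters listed for 15 of the 20 mitosis genes, 10 held TTTGAA (55.6%) and 16 held CCAAT (88.9%), against 15.2% and 34.6% of all promoters. Among 26 promoters of 17 of the 20 DNA replication genes, 1 held TTTGAA (3.85%) and 18 held CCAAT (69.2%). TTTGAA was also in 4 of the 11 MHC class II promoters (36.4%).

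Genes of DNA replication had a smaller median change than those of mitosis. Of 20 measured, 6 rose and none fell, against 5.62% higher and 4.63% lower over all entries, with a median of 0.205. Their sum was 394, 380.5 and 373 CPM with the combination, against 369, 365 and 371 CPM with quizartinib. RRM2, a subunit of the enzyme that makes deoxynucleotides, had 4.33, 5.06 and 6.84 CPM with the combination, against 1.08, 1.23 and 2.46 CPM with quizartinib (1.73 ± 0.27). TYMS (1.45 ± 0.23) and TK1 (1.20 ± 0.32), which supply thymidine nucleotides, and the origin licensing factors CDC6 (1.18 ± 0.26) and CDT1 (0.55 ± 0.11) rose. The helicase subunits MCM2 to MCM7, such as MCM2 (-0.14 ± 0.12) and MCM7 (-0.25 ± 0.13), and the clamp PCNA (-0.15 ± 0.09) were not called. With the 6 libraries of this comparison alone in the fit, or without the first combination library, 3 members were higher. Against 5.62% higher over all entries, 7 of 17 genes of the G1 machinery rose and none fell. They were CCND3 (0.71 ± 0.10), a partner of CDK4 and CDK6, CCNE2 (1.53 ± 0.38), the E2F factors E2F2, E2F3, E2F7 and E2F8, and MYBL2 (2.11 ± 0.33). Of these, E2F8 had 27 counts over the combination libraries and 2 over the quizartinib libraries, 12.7-fold higher (3.2 to 111). E2F2 and CCNE2 were also sparse, with means of 0.265 and 0.772 CPM over the 6 libraries. Their calls were lost in 5 of 14 and 4 of 15 settings. Of 7 CDK inhibitors CDKN1C (0.65 ± 0.18) and CDKN2C (0.60 ± 0.18), brakes on the cycle, rose, beside 5.62% of all entries. These calls were lost in 6 and 5 of 15 settings, as was that of E2F7 in 7 and that of TK1 in 5. CDKN1A (-0.54 ± 0.31) was not called.

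**Figure D4:**
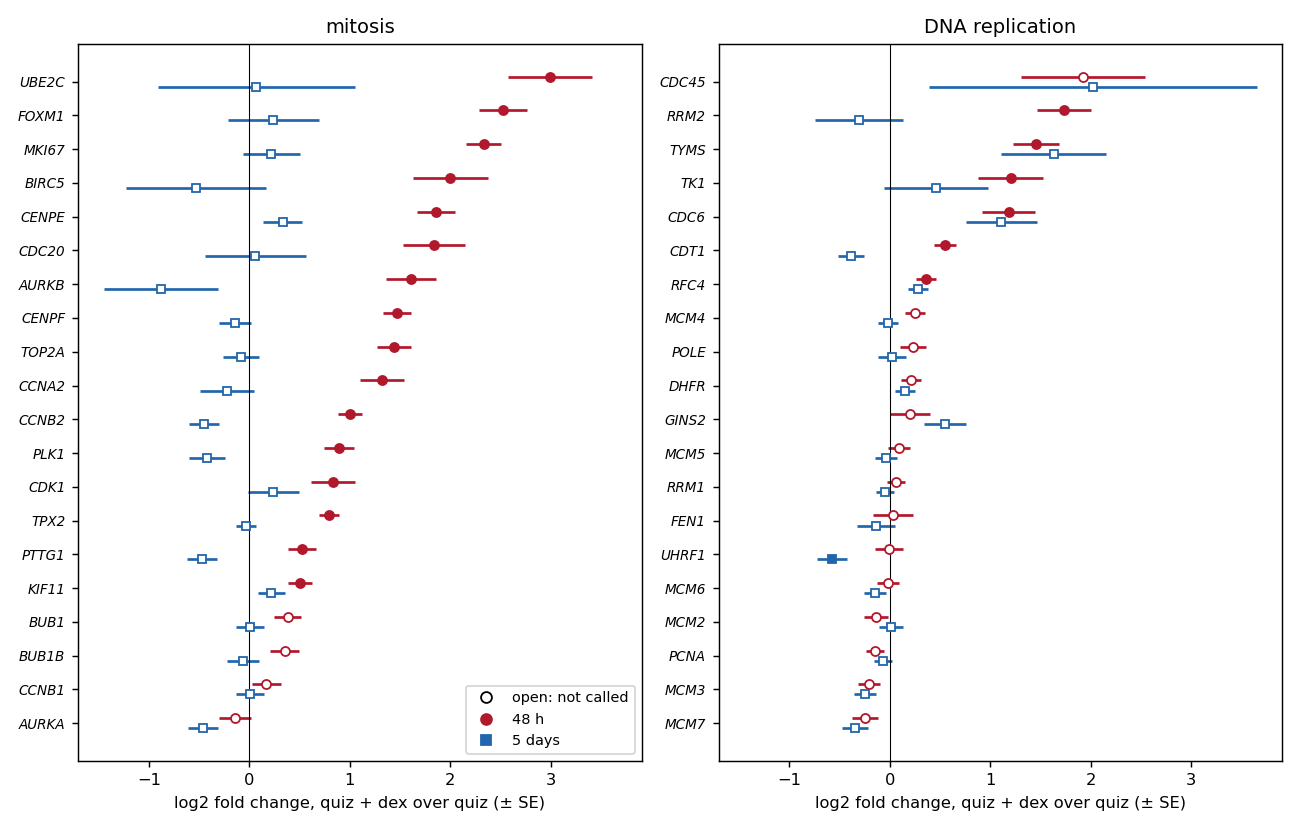
Log2 fold change of quizartinib plus dexamethasone over quizartinib (x axis, with SE) for 20 mitosis and 20 DNA replication genes (rows), at 48 h (red circles) and 5 days (blue squares), filled where called. At 48 h 16 mitosis genes lie to the right of 0 and are called, and at 5 days none is.

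At 5 days no mitosis gene passed the test. Their sum was 70.8, 65.1 and 69.6 CPM with the combination and 73.0, 75.6 and 69.7 CPM with quizartinib, overlapping groups, and 0 of the 20 were called in either direction, beside 4.6% higher and 4.04% lower over all entries. MKI67 had 0.806, 1.33 and 1.67 CPM with the combination and 1.19, 0.885 and 1.27 CPM with quizartinib at 5 days (0.22 ± 0.28, edgeR adjusted p = 0.74). The difference of the effects, 5 days minus 48 h, was called for 8 entries, 0.0487% of those tested, each of them lower at 5 days (638 entries, 3.88%, had an unadjusted p under 0.05, and DESeq2 called 39). The 8 were MKI67 (-2.11 ± 0.33), CENPF (-1.62 ± 0.21), the spindle factor TPX2, TOP2A (-1.52 ± 0.24), CCNB2 (-1.45 ± 0.19), the cytokinesis kinase CIT (-1.20 ± 0.14), IQGAP3 (-3.12 ± 0.42) and CDCA5, a protector of sister chromatid cohesion. The 5 day cells had dexamethasone from day 3, so time in quizartinib and the order of the drugs differ together from 48 h and cannot be told apart. The call was lost in 10 of 20 alternative settings for TOP2A, with adjusted p-values up to 0.16, and in 7 for MKI67, with values up to 0.12 (edgeR). A block for the replicate number gave 21 lower, and leaving out the number 3 libraries of 48 h gave 24 lower and 1 higher.

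The interaction at 48 h, the dexamethasone effect with quizartinib minus the effect without it, was positive for 244 entries and negative for 123, 1.49% and 0.749% of those tested. Of the mitosis list 11 members were more positive and none more negative. FOXM1 differed by 2.45 ± 0.28 (edgeR adjusted p = 0.00014) and MKI67 by 2.16 ± 0.22 (edgeR adjusted p = 4.6e-05). FOXM1 had 122, 128 and 96.0 CPM with dexamethasone, against 128, 108 and 93.6 CPM with DMSO, overlapping groups. With the 12 libraries of 48 h alone in the fit, 134 entries were positive and 55 negative.

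**Figure D5:**
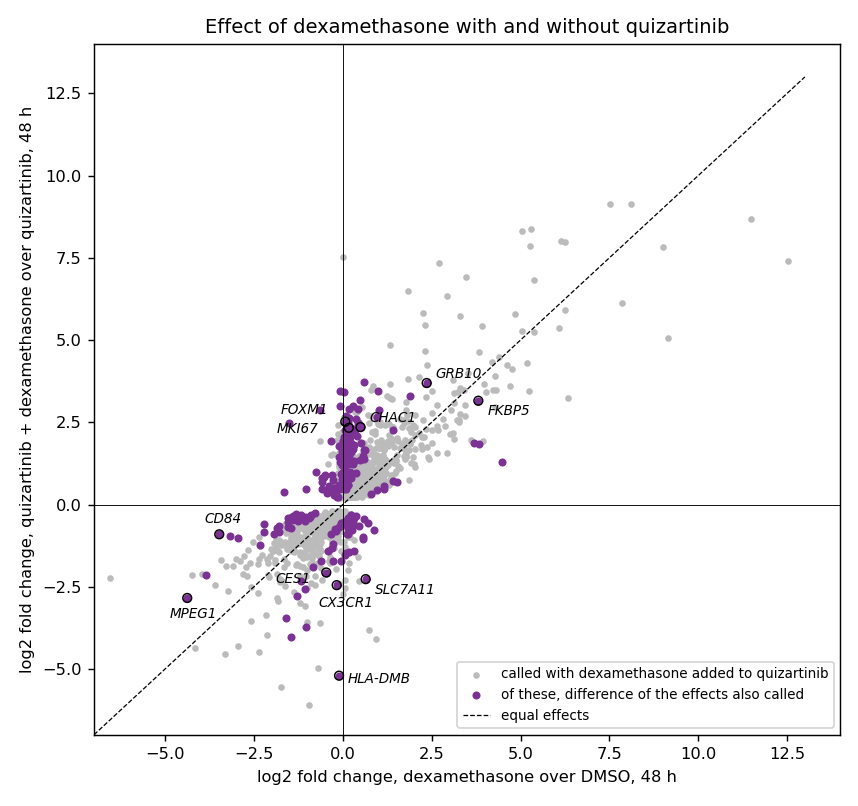
Log2 fold change of quizartinib plus dexamethasone over quizartinib (y axis) against that of dexamethasone over DMSO (x axis), both at 48 h, 1 point per entry among the 1685 called on the y axis. Purple points are those whose difference was itself called, with HLA-DMB, CX3CR1, CES1 and SLC7A11 below the dashed line of equal effects and FOXM1, MKI67 and CHAC1 above it.

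Among genes of at least 1 CPM and other list members, large negative differences besides HLA-DMB were those of SLC7A11, TLR4, GPC3, DPP4, SULT1B1 and TREM2. For these differences the level of 1 CPM is the mean over the 12 libraries of 48 h. SLC7A11, the cystine importer that feeds glutathione synthesis, had 3.82, 2.99 and 3.80 CPM with the combination, against 15.0, 15.5 and 20.6 CPM with quizartinib (-2.27 ± 0.18, edgeR adjusted p = 2.8e-07). It had 11.6, 15.6 and 17.6 CPM with dexamethasone, against 8.63, 11.5 and 8.51 CPM with DMSO, so that the difference of effects was -2.91 ± 0.25 (edgeR adjusted p = 9.4e-06). The direction of the point estimate was thus down with quizartinib and up without it. TLR4, the endotoxin receptor, was not called with the combination (0.26 ± 0.15), but had 121, 136 and 131 CPM with dexamethasone, against 14.7, 15.2 and 13.2 CPM with DMSO (3.17 ± 0.15, edgeR adjusted p = 5.2e-10). TREM2, a lipid receptor of macrophages (-2.52 ± 0.52), and the sulfotransferase SULT1B1 (-2.53 ± 0.49) were likewise not called with the combination and higher with dexamethasone alone. DPP4, a surface peptidase, had 0.0849, 0.0881 and 0.109 CPM with the combination, against 1.64, 1.69 and 1.5 CPM with quizartinib (-4.03 ± 0.47).

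CX3CR1, whose fall is given above, was not called without quizartinib. It was at 2.45, 2.97 and 4.28 CPM with dexamethasone and 2.06, 3.18 and 5.67 CPM with DMSO, and the effects differed by -2.28 ± 0.39 (edgeR adjusted p = 0.0045). For CES1 they differed by -1.60 ± 0.22 (edgeR adjusted p = 0.00076) and for CTSG by -1.0 ± 0.24. In the other direction MPEG1 fell less with quizartinib than without, by 1.53 ± 0.37, as did ITGB7 (1.10 ± 0.21). COL24A1, a collagen chain, was not called with the combination (-0.19 ± 0.32) and was lower with dexamethasone alone (-3.45 ± 0.44), a difference of 3.26 ± 0.55.

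The most positive differences among genes of at least 1 CPM were ID3, E2F8, GCH1, KIF18B, COL24A1 and DIPK1C. E2F8 averaged 0.227 CPM over the 6 libraries compared, so it reached that level through the groups without quizartinib. ID3, an inhibitor of basic helix-loop-helix factors, had 1.23, 1.94 and 5.92 CPM with the combination, against 0.565, 0.205 and 0.818 CPM with quizartinib (2.47 ± 0.60). GCH1, which makes the cofactor tetrahydrobiopterin, had 1.19, 1.01 and 4.50 CPM with the combination, against 0.308, 0.153 and 0.409 CPM with quizartinib (2.88 ± 0.57). In both genes the third combination library was the highest. KIF18B, a kinesin of the mitotic spindle, rose by 3.41 ± 0.60 and DIPK1C by 3.74 ± 0.60. The difference for ID3 was not called in 11 of the alternative settings, those for E2F8 and DPP4 in 9 and that for DIPK1C in 8.

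Most members of the metabolic lists were not called, beside 5.62% called higher and 4.63% called lower over all entries. Of 16 glycolysis genes the phosphofructokinases PFKM (0.85 ± 0.24) and PFKP (0.38 ± 0.11) rose, and LDHA (-0.12 ± 0.23) and HK2 (-0.43 ± 0.20) were not called. The calls were lost in 9 of 15 alternative settings for PFKM and in 6 for PFKP. Among 19 genes of sterol and fatty acid synthesis 2 fell and none rose, among them SREBF2, a transcription factor of sterol synthesis (-0.30 ± 0.09), whose call was lost in 7. Every combination library was below every quizartinib library in 6 of the 16 glycolysis genes and 6 of the 19 sterol genes. Over all entries this held for 15.3%. Of 18 MYC and ribosome biogenesis genes NOP16 fell (-0.59 ± 0.17, lost in 6 settings) and none rose, and of 13 mitochondrially encoded genes none was called. Of 16 genes of ATF4 and the amino acid response, SLC7A11 fell and CHAC1, which degrades glutathione, rose. CHAC1 had 10.6, 9.91 and 13.5 CPM with the combination, against 2.41, 1.89 and 2.32 CPM with quizartinib (2.35 ± 0.20, edgeR adjusted p = 3.8e-07), and its effect was larger with quizartinib than without (1.86 ± 0.26). ATF4 itself (0.24 ± 0.14), DDIT3 (-0.09 ± 0.27) and ASNS (-0.16 ± 0.09) were not called.

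Of 11 metallothioneins and zinc response genes, MT2A (1.35 ± 0.26), MT1X (1.17 ± 0.27) and MT1E (0.68 ± 0.14) rose and the zinc importers SLC39A10 (-0.39 ± 0.11) and SLC39A14 (-0.46 ± 0.14) fell. The calls of SLC39A14 and SLC39A10 were lost in 8 and 5 of 15 settings. Metallothionein genes are near-copies of each other, so their separate values are uncertain. The lysosome and autophagy list, of 19 genes, had 3 higher and 5 lower. For this list, the metallothioneins and the lists that follow, the shares over all entries were 5.62% higher and 4.63% lower. CTSB, the protease cathepsin B, rose (0.70 ± 0.12), with a smaller effect than without quizartinib (-0.83 ± 0.17), and CTSZ (-0.90 ± 0.10) and the lipase LIPA (-0.66 ± 0.17) fell. Of 12 complement genes C1QA rose and none fell, and of 13 eicosanoid enzymes and annexins PTGS1 (-0.71 ± 0.17) and ANXA2 (-0.80 ± 0.14) fell.

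Levels of markers of other cell types differed between the lists. NKG7, the T and NK cell marker measured, had 17.9, 15.9 and 13.1 CPM with the combination and 14.5, 16.7 and 13.7 CPM with quizartinib. It was not called (0.07). Of 9 fibroblast and epithelial markers 3 were among the entries, with sums of 18.5 to 23.3 CPM with the combination and 10.9 to 12.1 CPM with quizartinib. KRT18, a keratin, rose (0.77 ± 0.17), and COL1A1, a collagen chain, rose to 0.552, 0.660 and 2.55 CPM with the combination, against 0, 0.102 and 0.136 CPM with quizartinib. ITGA2B, a megakaryocyte integrin, fell (-1.21 ± 0.26), with 2.04, 2.38 and 1.47 CPM with the combination and 4.98, 4.71 and 4.00 CPM with quizartinib. No B cell marker was called. Per the labels all libraries come from 1 line, so these values are levels of marker RNAs and not counts of other cells. The part of these RNAs in the other results was not tested. The 7SL genes RN7SL1 (0.85 ± 0.26) and RN7SL2 (0.88 ± 0.26) rose with adjusted p-values of 0.045 and 0.036, calls lost in 7 and 6 of 14 settings, and RN7SK (0.40 ± 0.14) was not called. With the 7SK and 7SL entries left out of the table, 947 entries were higher and 731 lower.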

How the data were processed

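Counts per gene were deposited by the authors for each library, and the submitters' processing notes name CASAVA, STAR 2.7.3, RSEM, edgeR, DESeq2 and GRCh38 with no role or order. Per the labels, RNA was made into directional libraries. FPKM tables were not used here. Depth was 14795190 to 24990476 counts over the 18 libraries of the drug experiment, and low counts limit precision for rare genes.

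Entries were named from the table and from GENCODE 29. Counts of 16430 entries were scaled by TMM and fitted with edgeR 4.0.16 (R 4.3.3) by its quasi-likelihood test, with 6 groups of 3 libraries in 1 fit. Adjusted p-values are Benjamini-Hochberg over all entries, called below 0.05. The SE is the log2 fold change over the square root of F. Ratios of sparse genes have exact 95% intervals for counting error. The procedure was tested on simulated data.

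Deviations from the group mean had correlations of 0.153, 0.205 and 0.325 between combination and quizartinib libraries of the same number at 48 h. Numbers 1 and 2 correlated with each other to a like degree (0.14 and 0.156). Number 3 had -0.201 to -0.249 against numbers 1 and 2. At 5 days the same-number values were 0.108, -0.0617 and 0.0721. The replicate block was among the alternatives. Others were DESeq2 1.42.0, RLE factors, filters, subsets of libraries, removal of 7SK and 7SL, and each replicate left out.

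Named genes were the largest, most significant and most abundant changes among called genes of at least 1 CPM, up to 4 members a list and defining genes. Other list members are also named, chosen after their values were seen. The lists and the comparison were chosen with earlier results of these data known. Some genes of these lists are not reported here.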

Additional observations from a re-analysis of the deposited data

Results flagged for a closer look

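For the genes named here the effect of dexamethasone at 48 h differed with and without quizartinib by the edgeR test of the difference itself, at an adjusted p under 0.05 over all 16430 entries. Values are log2 differences, the effect with quizartinib minus the effect without it.

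Positive differences among cell cycle genes were 3.52 for E2F8, 3.38 for KIF18B, 2.45 for FOXM1, 2.28 for IQGAP3, 2.16 for MKI67, 1.91 for MYBL2, 1.62 for RRM2, 1.55 for TYMS, 1.36 for TOP2A, 1.34 for CENPE, 1.31 for CENPF, 1.13 for CDC6, 0.93 for CIT and 0.79 for CCNB2. Other positive differences were 3.99 for ID3, 3.51 for GCH1, 3.26 for COL24A1, 3.13 for DIPK1C, 1.86 for CHAC1, 1.53 for MPEG1, 1.39 for PFKM, 1.33 for GRB10 and 1.10 for ITGB7.

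Negative differences were -5.10 for HLA-DMB, -1.87 for HLA-DRB1, -1.5 for CIITA, -1.14 for CD74, -2.91 for TLR4, -2.52 for TREM2, -2.28 for CX3CR1, -1.60 for CES1, -1.0 for CTSG, -0.83 for CTSB and -0.60 for CD4. It was -2.91 for SLC7A11, -2.69 for GPC3, -2.57 for DPP4, -2.53 for SULT1B1 and -0.66 for FKBP5. For this difference, alternative settings were compared only for the largest values in each direction. The call was lost in 11 of 19 settings for ID3, in 9 of 20 each for E2F8 and DPP4 and in 8 of 20 for DIPK1C. It was lost in 2 of 20 for TREM2 and in 1 of 20 for GCH1.

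With quizartinib, the effect at 5 days minus the effect at 48 h was called for IQGAP3 (-3.12), MKI67 (-2.11), CENPF (-1.62), TOP2A (-1.52), CCNB2 (-1.45) and CIT (-1.20). The call was lost in 10 of 20 alternative settings for TOP2A and in 7 for MKI67.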

How the results depend on the processing

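The counts of 924 higher and 761 lower entries stayed within 1.5 times under DESeq2 (1020 and 946), RLE factors, both filters, the replicate block (1051 and 917), fits of 12 or 6 libraries and each replicate left out (630 to 759 and 509 to 600); 408 and 201 were also at least 2-fold. Of the 1685 calls, 1659 were kept by DESeq2 and 1615 with the block, but 1115 to 1277 with a replicate of either group left out (1115 without the third combination library, 1137 without the first quizartinib library). The 12 libraries of 48 h kept 1184 of 1670, the 6 compared 1386 of 1638, and leaving out the 4 libraries numbered 3 kept 1297 of 1680. For the difference with and without quizartinib, DESeq2 called 259 lower, and the 12 libraries of 48 h gave 134 higher and 55 lower. Leaving out each replicate gave 141 to 267 higher and 77 to 147 lower. For the difference between 5 days and 48 h, lower entries numbered 39 with DESeq2, 21 with the replicate block, 24 without the 4 libraries numbered 3 of 48 h (with 1 higher), 3 with the 12 quizartinib libraries and 4 to 11 with each replicate left out (0 to 1 higher). The cause was not tested.

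Over 213 results on single genes, leaving out each replicate in turn ended a call 269 times and left the result on the same side of the threshold 1113 times. It turned the sign 4 times, in MCL1 and NR3C1, and leaving out the 4 libraries numbered 3 did so once, in MCL1. MCL1, not called, was 0.23 without the 4 libraries numbered 3 and ranged between -0.82 and 0.56 with a replicate left out. NR3C1, not called, ranged between -0.03 and 0.11, with -0.01 without the third combination library. Genes with few counts have the widest errors.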
